A study of Mus musculus with 9 samples.

Results

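The receptors and Smad proteins that carry TGF-beta and BMP signals were followed through castration in mouse bone and bone marrow, as far as the array measured them. The genes taken were Tgfbr1, Tgfbr2, Smad1, Smad3, Smad4, Smad5, Smad6, Smad7, Bmpr1a and Bmpr2, wherever a feature (1 spotted probe) was annotated with a single one of these symbols and carried values on 2 or more arrays in every group. Of these 10 genes 7 were measured, by 13 of the 11552 features on the array (8885 of which could be tested). Smad3, Smad6 and Bmpr1a had no feature annotated alone with their symbol. Smad5 had a second feature, which held no value on any array and was left out.

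Each array held RNA of a castrated and of a sham-operated C57BL/6 mouse, surgery having been done at 7 weeks of age, and gave the log ratio of the pair. Bone of 17-week-old mice (young bone), bone marrow of 17-week-old mice (young marrow) and specimens labelled bone marrow of 59-week-old mice (old) had 3 arrays each, with a separate mouse pair on each array of a group. The labels name no mutant allele and no agent beyond the surgery, and the bones were femur, tibia and humerus. Marrow was taken out of the bone at the young age, and the sources do not say if the old specimens also held bone. Nor do they say if the bone and the marrow of the young mice were taken from one set of pairs. The castrated mouse was labelled with Cy5 on 6 arrays and with Cy3 on the other 3 (young bone replicate 3, young marrow replicate 2 and old replicate 2), called swapped arrays here. Ratios carry no expression level, so the labelled tissues could not be checked against the levels of marker genes.

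TGF-beta and activin-type ligands bind a type II receptor, which phosphorylates a type I receptor, and this in turn phosphorylates receptor-regulated Smads that enter the nucleus with the common partner Smad4. Tgfbr2 and Tgfbr1 are the type II and type I receptors for TGF-beta, while Bmpr2 is a type II receptor for BMPs, whose signal runs through Smad1 and Smad5. In bone, TGF-beta stored in the matrix and BMPs both act on osteoblast formation, and TGF-beta restrains the growth of several lineages of marrow cells.

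The log ratios are given as deposited and were read as log2. Which mouse is the numerator is not stated. The sample descriptions word all 9 arrays as castrated hybridized against sham, including the swapped ones, so castrated over sham is the likely direction and is the main reading here. The other reading, called the channel reading, takes each value as Cy5 over Cy3 and turns the sign of the swapped arrays. On the 6 unswapped arrays both readings are the same. Features were tested with limma over all 9 arrays with a term for the dye layout, and called where the Benjamini-Hochberg adjusted p over all 8885 features was under 0.05.

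The 5' ends of Tgfbr2 and Smad5, whose average ratios stood highest of the members under the castrated-over-sham reading but not under the channel reading, are shown because they are the stretches of DNA from which transcription of these members starts. The windows run from 250 bases before to 50 after the RefSeq start of GRCm38.p6, at chr9:116175314-116175613 (minus strand) for Tgfbr2 and chr13:56702760-56703059 (plus strand, the first of 3 listed starts) for Smad5, 5' to 3', with motif matches in capitals.
Tgfbr2: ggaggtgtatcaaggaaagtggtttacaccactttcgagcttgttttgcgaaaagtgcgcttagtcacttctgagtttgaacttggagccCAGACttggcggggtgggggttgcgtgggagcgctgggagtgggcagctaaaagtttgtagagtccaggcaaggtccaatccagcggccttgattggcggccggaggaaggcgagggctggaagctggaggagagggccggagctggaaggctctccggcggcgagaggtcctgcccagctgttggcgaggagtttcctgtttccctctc
Smad5: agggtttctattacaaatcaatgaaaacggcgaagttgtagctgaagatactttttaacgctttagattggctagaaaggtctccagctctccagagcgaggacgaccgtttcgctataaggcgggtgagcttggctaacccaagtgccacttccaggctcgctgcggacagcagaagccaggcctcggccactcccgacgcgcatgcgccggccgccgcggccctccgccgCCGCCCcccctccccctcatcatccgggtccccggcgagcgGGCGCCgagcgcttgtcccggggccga
The letters searched on both strands were CAGAC (the Smad box), GGCGCC (a GC-rich Smad element), GGGCGG (the GC box) and TGTTCT (a hexamer of androgen and glucocorticoid receptor elements). The capitals in Tgfbr2 mark CAGAC, with its first base at -160 from the start. The capitals in Smad5 mark the GC box on the other strand, at -18, and GGCGCC, at +23. These motifs are common: CAGAC was found in 49.6%, GGCGCC in 11.9%, GGGCGG in 35.7% and TGTTCT in 19.0% of 32851 RefSeq promoter windows of this length, so the matches describe the letters only. TGTTCT had no match in either printed window. Of the 10 genes 8 had a window in the RefSeq table.

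None of the 13 receptor and Smad features passed the test of castration by limma, in any group or in the average over the groups, under either reading. Smad5 and both features of Tgfbr2 lay closest to the threshold in the average, all with ratios above 0 and with 95% intervals that exclude 0 before adjustment. The background of the test was low: 0.259% of all features passed for young bone, 0.844% for young marrow, 0.732% for the old group and 4.04% for the average, with castrated over sham as the ratio. An unadjusted limma p under 0.05 was seen for 2 of the 13 features in young bone and 3 in young marrow, against 8.78% and 10.5% of all features. It was seen for 1 of the 13 in the old group and 3 in the average, against 18.2% and 16.2%. The counts of 2 and 3 each include both Tgfbr2 features, which are repeat spots of 1 sequence. Under the channel reading no feature of the array passed in the average, with 418 at an unadjusted p under 0.05, and none of the 13 was at that level in any comparison. The RNA is that of whole tissue, in which fewer cells of a type and less RNA per cell cannot be told apart.

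**Figure D1:**
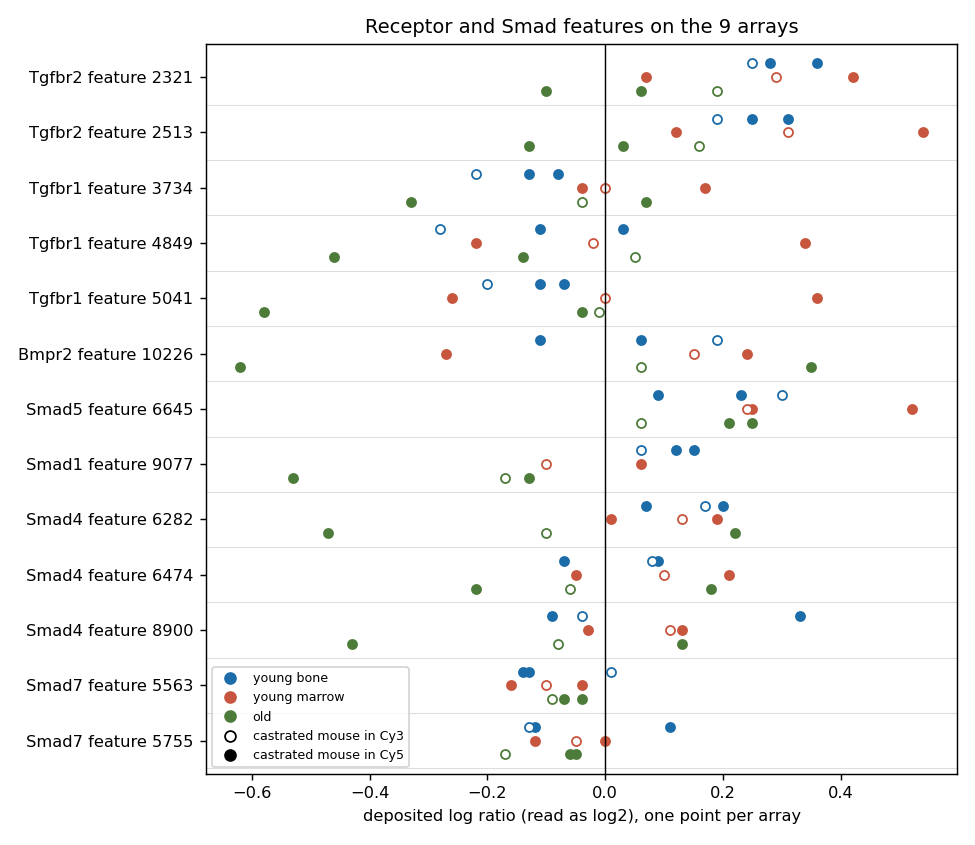
Deposited log ratio (x axis, read as log2) of each of the 13 receptor and Smad features (y axis), with 1 point per array; colour gives the group and open points are the swapped arrays, on which the castrated mouse was in Cy3. Smad5 lies above 0 on 9 of 9 arrays, and in Tgfbr2 all 3 young bone points lie to the right of all 3 old points.

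Tgfbr2 encodes the type II receptor that binds TGF-beta first. It was measured by a pair of spots with the same annotated sequence. On feature 2321 the log2 ratio was 0.28, 0.36 and 0.25 in young bone, 0.42, 0.29 and 0.07 in young marrow and -0.10, 0.19 and 0.06 in the old group, in the order of replicates 1, 2 and 3. On feature 2513 it was 0.25, 0.31 and 0.19 in young bone, 0.54, 0.31 and 0.12 in young marrow and -0.13, 0.16 and 0.03 in the old group. All 6 young arrays stood above 0 on both spots, and old replicate 1 was the single array below 0. The young bone values were close together and above every old value, while young marrow spanned both groups.

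For feature 2321 the fitted ratio was 0.31 in young bone (SE 0.10, 95% interval 0.09 to 0.53; limma adjusted p = 0.33), 0.27 in young marrow (SE 0.10, 0.05 to 0.49; adjusted p = 0.35) and 0.06 in the old group (-0.16 to 0.28; adjusted p = 0.75). The average was 0.21 (SE 0.06, 0.08 to 0.34), with a limma adjusted p of 0.083. Feature 2513 gave 0.26, 0.33 and 0.03 in the same order, and an average of 0.20 (SE 0.06; limma adjusted p = 0.12). The value depends on the reading: under the channel reading the averages were -0.03 and -0.02, since the ratio was above 0 on all 3 swapped arrays as well. Without old replicate 2, a swapped array, the castrated-over-sham average of feature 2321 was 0.18 (limma adjusted p = 0.39).

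Smad5 encodes a receptor-regulated Smad that BMP receptors phosphorylate. On its measured feature, 6645, the log2 ratio was 0.09, 0.23 and 0.30 in young bone, 0.25, 0.24 and 0.52 in young marrow and 0.21, 0.06 and 0.25 in the old group. It was thus above 0 on 9 of 9 arrays, in each dye layout, with the highest value in young marrow replicate 3 and the lowest in old replicate 2, and the groups overlapped. Among 7544 features measured on every array, 1.83% were above 0 on all 9. Smad5 was 1 of the 12 receptor and Smad features with 9 values to be so. Its place among all features of an array ran from the 61.8th to the 96.9th percentile, with a median of 87.3.

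The fitted ratio of Smad5 was 0.20 in young bone (SE 0.10, 95% interval -0.02 to 0.41; limma adjusted p = 0.64), 0.33 in young marrow (SE 0.10, 0.11 to 0.54; adjusted p = 0.21) and 0.16 in the old group (SE 0.10, -0.05 to 0.38; adjusted p = 0.36). The average over the groups was 0.23 (SE 0.06, 0.10 to 0.36), at a limma adjusted p of 0.055, just outside the threshold. Its side of the threshold turned on the settings of the fit: the adjusted p was 0.024 with no dye term, 0.046 with array medians set to 0 and 0.049 with the replicate number as a block. It was 0.14 on the unswapped arrays alone, and 0.056 to 0.28 with 1 array left out, the highest without young bone replicate 3 (value 0.18). Under the channel reading the average was 0.03 (limma adjusted p = 0.93). The mean deposited ratio was 0.26 on the 6 unswapped and 0.20 on the 3 swapped arrays, and the channel reading turns the sign of the latter.

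**Figure D2:**
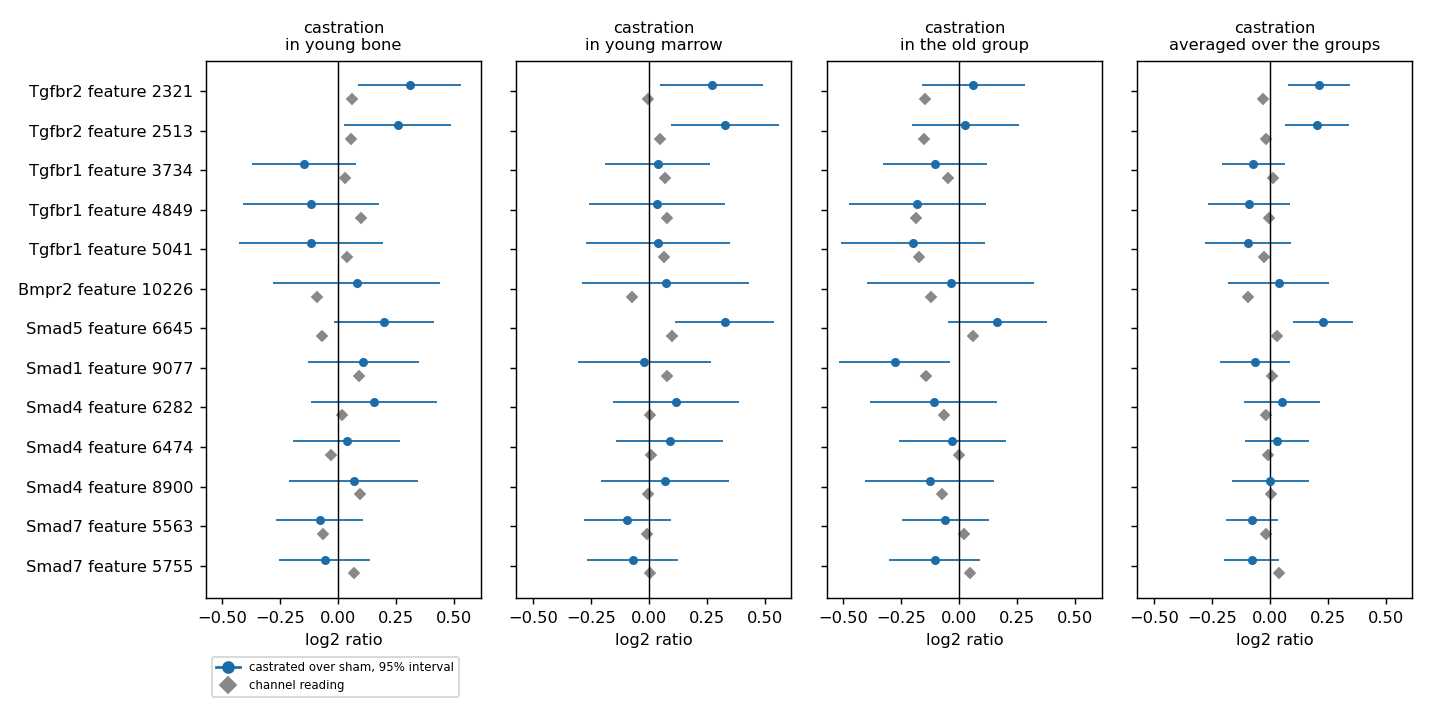
Fitted log2 ratio (x axis) of the 13 features (y axis) in the 3 groups and in their average; blue points with 95% limma intervals are the castrated-over-sham reading and grey diamonds the channel reading. The average intervals of both Tgfbr2 features and of Smad5 lie above 0 in the blue reading, while the grey averages of these features lie between -0.03 and 0.03.

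Tgfbr1, the type I receptor that Tgfbr2 activates, was measured by 3 features. Feature 3734 read -0.13, -0.08 and -0.22 in young bone, -0.04, 0.00 and 0.17 in young marrow and -0.33, -0.04 and 0.07 in the old group. Feature 4849 read -0.11, 0.03 and -0.28, then -0.22, -0.02 and 0.34, then -0.46, 0.05 and -0.14 in the same order of groups. Feature 5041 read -0.11, -0.07 and -0.20, then -0.26, 0.00 and 0.36, then -0.58, -0.01 and -0.04. In all 3 features old replicate 1 was the lowest array and young marrow replicate 3 the highest. The averages were -0.07, -0.09 and -0.09 (limma adjusted p from 0.68 to 0.70), with the widest 95% interval, that of feature 5041, from -0.28 to 0.09. The ratio of the type I receptor thus did not follow that of the type II receptor across the arrays. Over the 6 pairs of a Tgfbr1 with a Tgfbr2 feature, Pearson's r was 0.13 to 0.25 over 9 arrays and -0.69 to -0.31 without old replicate 1; both genes were read on the same arrays, and r is a description.

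Bmpr2, the type II receptor for BMPs, was measured by feature 10226, which read 0.06, -0.11 and 0.19 in young bone, -0.27, 0.15 and 0.24 in young marrow and -0.62, 0.06 and 0.35 in the old group. Its spread within the old group (SD 0.50, n = 3) was the widest of any receptor or Smad feature in any group, from the 2.9th percentile of its array on old replicate 1 to above every other receptor or Smad feature on old replicate 3. The average was 0.04 (SE 0.10, 95% interval -0.18 to 0.25; limma adjusted p = 0.92). All 3 swapped arrays stood above 0, against 3 of the 6 unswapped ones.

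Smad1 is the close relative of Smad5 in the BMP branch. Feature 9077 read 0.15, 0.12 and 0.06 in young bone, 0.06 and -0.10 in young marrow, where replicate 3 had no value and the fit used the other 8 arrays, and -0.53, -0.17 and -0.13 in the old group. Every young bone array was above 0 and every old array below it. The fitted ratio was 0.11 (SE 0.11) in young bone and -0.28 in the old group (SE 0.11, 95% interval -0.52 to -0.04; limma adjusted p = 0.24), and -0.14 in the old group under the channel reading. Without old replicate 1, the array with the widest ratios, the old value was -0.15 (limma adjusted p = 0.75). Smad1 and Smad5 thus had old values of opposite sign, a difference that was not tested.

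Smad4, the partner shared by both branches, was read by 3 features. The highest values were 0.22, 0.21 and 0.33 on features 6282, 6474 and 8900, and the lowest, all on old replicate 1, were -0.47, -0.22 and -0.43. The averages were 0.05, 0.03 and 0.00 (limma adjusted p of 0.83 or above), and the 95% intervals together ran from -0.16 to 0.21. On each feature the 2 lowest old arrays were below 0 and old replicate 3 above it.

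Smad7, an inhibitory Smad that blocks the type I receptors, was read by a pair of spots. Feature 5563 read -0.13, -0.14 and 0.01 in young bone, -0.16, -0.10 and -0.04 in young marrow and -0.07, -0.09 and -0.04 in the old group, so 8 of 9 arrays were below 0. Feature 5755 was below 0 on 7 of 9 arrays, with the highest value, 0.11, in young bone replicate 1. Both averages were -0.08 (SE 0.05; limma adjusted p = 0.53 and 0.56). The 95% intervals, -0.19 to 0.03 and -0.20 to 0.04, keep the average of Smad7 within a narrower range than that of any other measured member.

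The spots that repeat a sequence give the part of the measurement error that arises between spots of 1 array. There were 638 pairs of spots with the same annotated sequence, 192 positions apart, of which 401 to 548 had both values on an array. Over these the SD of 1 spot was 0.063 to 0.100 log2 units on the 9 arrays. The Tgfbr2 spots differed by at most 0.12 and had r = 0.96 over 9 arrays, the Tgfbr1 pair (4849 and 5041) by at most 0.12 with r = 0.95, and the Smad4 pair (6282 and 6474) by at most 0.25 with r = 0.89. The Smad7 spots had r = -0.08, with a median difference of 0.04 and a largest one of 0.24. The pattern of Tgfbr2 across arrays thus repeated between its spots, and that of Smad7, whose values lie near 0, did not. Such spots share the RNA and the array and count as no further replicates.

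**Figure D3:**
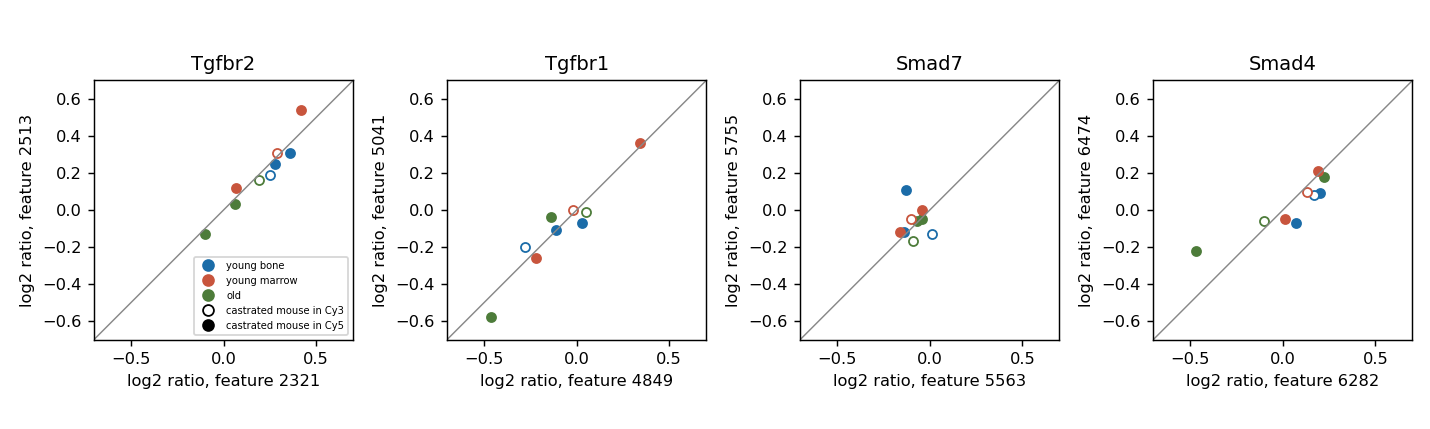
Log2 ratio of one spot (x axis) against that of its repeat (y axis) for Tgfbr2, Tgfbr1, Smad7 and Smad4, with 1 point per array, coloured by group and open for swapped arrays; the grey line marks equal values. The Tgfbr2 points follow the line from -0.13 to 0.54, while the Smad7 points gather near 0 with young bone replicate 1 off the line.

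The response was next compared between the groups. None of the 13 features passed the limma test of a difference between groups. The background was 0% (0 of 8885) for young marrow minus young bone, 0.0113% for old minus young bone and 0% (0 of 8885) for old minus young marrow, with 455, 589 and 1292 features at an unadjusted p under 0.05. Of the 13 features 0, 1 and 0 were at that level. For Tgfbr2 the old minus young bone difference was -0.25 (SE 0.14, 95% interval -0.55 to 0.06; limma adjusted p = 0.69) on feature 2321 and -0.23 (adjusted p = 0.71) on feature 2513. The old minus young marrow difference was -0.21 (SE 0.14, -0.52 to 0.10; limma adjusted p = 0.46) and -0.30 (SE 0.15, -0.62 to 0.02; adjusted p = 0.35) on the same features. The channel reading gave -0.21 and -0.21, and -0.14 and -0.20. Smad1 gave the largest difference between the old group and young bone, -0.39 (SE 0.15, -0.72 to -0.06; limma adjusted p = 0.69), which was -0.25 without old replicate 1 and -0.23 under the channel reading. For Smad5 that difference was -0.03 (SE 0.13, -0.33 to 0.26; limma adjusted p = 0.95).

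Groups whose arrays did not overlap in the deposited ratio were counted as a description. Between the old group and young bone this held for 3 of 13 features, Smad1 and both repeat spots of Tgfbr2, where 7.9% of all features did so in the deposited ratios. Between young marrow and young bone it held for 1 of 12, Tgfbr1 feature 3734 (higher in marrow), against 11.4% of all features, and between the old group and young marrow for 0 of 12, against 20.6%. The last counts are near or below their background. With the channel reading, which turns 1 array in each group, 0 of these features were free of overlap in each of the 3 comparisons, where 7.5%, 7.15% and 2.82% of all features were. The median fitted ratio of the 13 features was 0.07 in young bone and again 0.07 in young marrow. In the old group it was -0.11. The medians over all features were -0.01, 0.00 and -0.04. The fitted medians of the 13 were 0.04, 0.01 and -0.07 under the channel reading. Array by array, the median deposited ratio of the 13 was -0.33, -0.04 and 0.06 on old replicates 1, 2 and 3. The old arrays thus did not share a sign, and replicate 1 lay far below the others. The young bone arrays stood at 0.06, 0.09 and 0.06, and those of young marrow at -0.04, 0.1 and 0.18. In the old group 3 of the 13 fitted ratios were above 0, against 8 in young bone and 10 in young marrow. Under the channel reading the counts were 3, 9 and 9. The 13 features stand for 7 genes and are not independent. The share of all features above 0 was not counted, so these counts show no difference between the groups.

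Old replicate 1 stood apart from the other arrays, with an SD across features of 0.45 against 0.19 to 0.29 and a median over the tested features of -0.12. It held the lowest value of all 9 arrays for 10 of the 13 features, the exceptions being Smad5 and both spots of Smad7. These 10 are features of Tgfbr1, Tgfbr2, Smad1, Smad4 and Bmpr2, with features of the same gene counted apart. The share of all features with their lowest value on this array was not counted, so the 10 are a description only. Without it no receptor or Smad feature passed in any comparison either. The part of this array's wider spread in the members' values was not tested.

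Markers of cell types also had deposited ratios away from 0 on the same arrays, and their part in the values above was not tested. The ranges that follow are of the median deposited ratio of a list on each array, and single genes can lie outside them. The ranges stand for castrated over sham under that reading alone. B lymphocyte genes (6 of 14 listed were measured) had a median log2 ratio per array of 0.40 to 1.15, above 0 on all 9. Granulocyte genes (3 of 13) lay between -0.71 and -0.08 and monocyte and macrophage genes (4 of 9) between -0.76 and -0.07, below 0 on all 9. Bone matrix genes (3 of 12) lay between 0.26 and 1.74 on the 6 young arrays and between -0.33 and 0.38 on the old ones, the lowest being old replicate 1. Adipocyte genes (4 of 8) lay between 0.30 and 1.45, also above 0 on all 9. Skeletal muscle genes (6 of 10) lay between -1.09 and -0.16 in young bone and between 0.07 and 0.66 in the old group. Endothelial genes (5 of 8) lay between -0.21 and 0.28. The megakaryocyte list (3 of 7) ran from 0.00 to 0.62, and erythroid and T and NK lists had 1 measured gene each. The median of the fitted averages was 0.65 for B lymphocytes, -0.41 for granulocytes and -0.42 for monocytes and macrophages with castrated over sham, with 5, 3 and 3 genes called by limma. These medians were 0.02, 0.03 and 0.01 under the channel reading, with 0 called. For adipocytes, megakaryocytes and endothelium the medians were 0.66, 0.30 and 0.12 with castrated over sham, with 4, 3 and 1 genes called up. Under the channel reading the latter medians were 0.13, 0.01 and 0.01, with 0 called. The remaining lists had no gene called in the average. Of all features 4.04% passed in the average with castrated over sham.

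The rest of the pathway was read from lists of ligands, antagonists, receptors, Smad regulators and target genes, counted by the genes called in a single direction. The test of the average, in which 4.04% of all features passed, called 0 up and 3 down among the measured genes of the 5 lists. The tests of difference between groups called none of their genes.

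Among the receptors outside the named set (7 of 14 genes measured), 0 rose and 1 fell in the average, under the castrated-over-sham reading. This was Acvrl1, a type I receptor best known from endothelium that pairs with Smad1 and Smad5. Its feature 7441 read -0.42, -0.85 and 0.14 in young bone, -0.59, -0.67 and -0.96 in young marrow and -0.59, -0.53 and -0.20 in the old group. All arrays but young bone replicate 3 were below 0. The average was -0.48 (SE 0.09; limma adjusted p = 0.018) and -0.60 on the unswapped arrays alone (adjusted p = 0.031), but -0.12 under the channel reading (adjusted p = 0.89). The call was lost without old replicate 2 (limma adjusted p = 0.16), young marrow replicate 2 (0.15) or young marrow replicate 3 (0.052).

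Of the target genes (16 of 33 measured), 0 rose and 2 fell in the average, and 1 fell in young marrow, while 22 features of these genes were tested in all. Tgfbi encodes a matrix protein named for its induction by TGF-beta. Its feature 3569 read -0.07, -0.28 and -0.41 in young bone, -0.47, -0.44 and -0.42 in young marrow and -0.75, -0.37 and -0.28 in the old group, below 0 on every array. The average was -0.39 (SE 0.07; limma adjusted p = 0.0095), and 0.01 under the channel reading. The call was lost without young bone replicate 3 (limma adjusted p = 0.077) or young marrow replicate 2 (0.080).

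Id2 encodes an inhibitor of basic helix-loop-helix factors whose gene is a BMP target. Feature 5368 read -0.17, -0.18 and -0.11 in young bone, -0.53, -0.37 and -0.08 in young marrow and -0.44, -0.71 and -0.04 in the old group, again below 0 on every array. The average was -0.32 (SE 0.08; limma adjusted p = 0.044), and 0.08 under the channel reading. The call held without old replicate 3 (limma adjusted p = 0.0078) and was lost when any of the other 8 arrays was left out (adjusted p from 0.058 to 0.29).

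Fn1, which encodes the matrix protein fibronectin, was called in young marrow alone of the castration comparisons, where 0.844% of all features passed. Its features 10258 and 10450 read -0.75, -0.54 and -0.91, and -0.70, -0.58 and -0.83, in young marrow. In young bone they read 0.51, -0.08 and 0.42, and 0.44, -0.09 and 0.44, and in the old group they lay between -0.34 and -0.03. The marrow ratios were -0.69 (SE 0.11; limma adjusted p = 0.019) and -0.67 (SE 0.11; adjusted p = 0.018), but they were -0.31 and -0.26 under the channel reading, at an adjusted p of 1, where 0 features of the array passed. The marrow minus bone difference of feature 10258 was -1.02 (limma adjusted p = 0.17). The call was lost when any of the 3 young marrow arrays was left out, at limma adjusted p from 0.15 to 0.32.

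**Figure D4:**
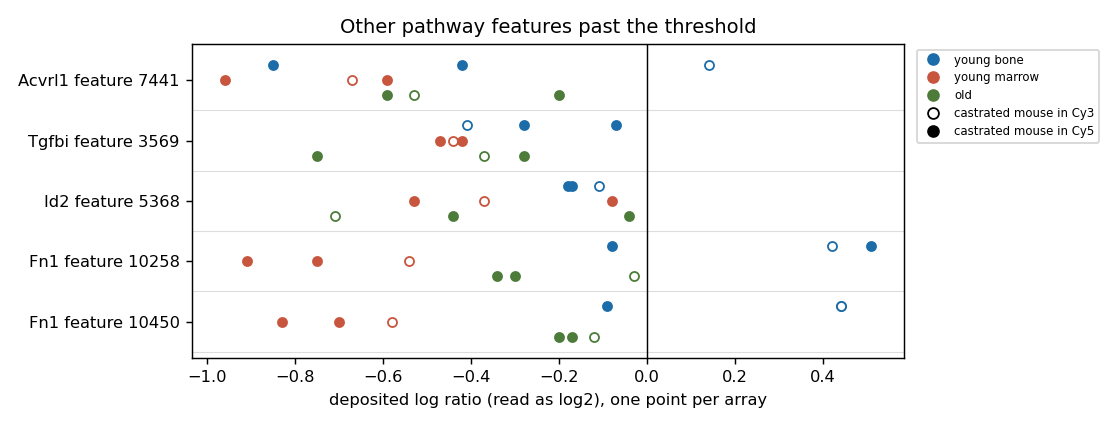
Deposited log ratio (x axis, read as log2) of the 5 features of other pathway genes that passed a limma test of castration (y axis), with 1 point per array, coloured by group and open for swapped arrays. Tgfbi and Id2 lie below 0 on every array, and the young marrow points of Fn1 lie to the left of the young bone and old points.

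The other lists held no gene past the threshold in any comparison. Of the ligands 6 of 34 were measured, and the 3 genes with the smallest p in the average were Inhbe, an activin subunit (0.15), Bmp7 (0.09 and 0.07 on its features) and Gdf10 (-0.06). These were 0.12, 0.02 and 0.04, and 0.02 under the channel reading. The Bmp7 features stood at 0.25 and 0.19 in young bone, -0.38 and -0.43 in young marrow and 0.39 and 0.44 in the old group. Their old minus young marrow difference was 0.78 and 0.87 (limma adjusted p = 0.34 for both), and 0.36 and 0.37 under the channel reading. Of the antagonists and ligand-binding proteins 10 of 24 were measured, led by Thbs1, an activator of latent TGF-beta (0.32 and 0.30; limma adjusted p = 0.15 for both), the BMP antagonist Chrdl1 (0.21 and 0.04 on its features) and Twsg1 (0.18), which binds BMPs. Under the channel reading these were -0.13 and -0.13 for Thbs1, -0.06 and 0.05 for Chrdl1 and -0.09 for Twsg1. Of the other Smads and Smad regulators 21 of 38 were measured, led by the coactivator Crebbp (0.17; limma adjusted p = 0.17) and the corepressors Tgif2 (0.19) and Tgif1 (0.14), which stood at -0.07, 0.06 and -0.07 under the channel reading. The medians of these 3 lists in the average were 0.02, 0.13 and 0.01, beside -0.00 over all features. The antagonists' median was 0.02 under the channel reading.

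The features whose 9 deposited ratios were most like those of the members were found by Pearson's r over the arrays, among features of other single named genes with 9 values. Tgfbr2 feature 2321 was most like Tmem174 (r = 0.87), Klc1 (0.86) and Rab6a (0.86), and feature 2513 most like Tnfaip3 (0.88), Vps35 (0.85) and Lrrc47 (0.84), so its repeated spots shared none of their nearest 3. Smad5 was most like Xbp1 (0.95), Ndufa2 (0.95) and S100a10 (0.93). For Tgfbr1 the nearest was Nrbf2 (0.97) for feature 3734 and Cd164 for both features 4849 (0.98) and 5041 (0.96). Bmpr2 was most like Slc25a11 (0.98), Trim13 (0.98) and Slc14a2 (0.98), and Smad4 feature 6282 most like Aftph (0.99). Smad4 features 6474 and 8900 were nearest to Prepl (0.95) and Spred1 (0.95). The Smad7 features were nearest to Itgb7 (0.91) and Pdlim3 (0.93). The points share their arrays, and each r is the highest found over all such features and is given as a description.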

How the data were processed

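The data are dual-channel arrays of castrated against sham-operated mice. The authors deposited 1 log ratio per feature and array, read here as log2; the log base, the direction, the background treatment and the normalization are not given in the sources used here. If the values are natural logs, all would be scaled by a constant and the tests would not change. Per the labels' protocols, total RNA from pulverized bone was reverse transcribed into aminoallyl cDNA and coupled to Cy3 or Cy5. Arrays carried 8290 to 10995 values. Intensities were not used here, so signal over background is not known, and 3 arrays a group limit the precision.

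Feature names come from the platform annotation, brought to current symbols through gene IDs: 8050 had 1 symbol, 672 several and 2830 none, and 7880 of the single symbols matched. No value was scaled or imputed. A linear model with a coefficient per group and a dye term was fitted in limma 3.58.1 (R 4.3.3). It took the 8885 features with a value on at least 2 arrays of each group and on at least 1 swapped array. The fit left 5 residual degrees of freedom (prior 5.67), with Benjamini-Hochberg adjustment over all 8885 features at 0.05. Other fits were tried and are given in the closing section. P-values measure the spread between arrays, with 1 estimate of that spread per feature shared by all groups. The SE and interval of a group thus do not give that group's own spread. The script was tested on simulated data.

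The members, the gene lists and the choice of castrated over sham as the main reading were made with earlier results of these data known. Named pathway genes were those past the threshold, otherwise the 3 genes of a list with the smallest p in the average; for likeness, the 3 features with the highest r. Promoter windows are from RefSeq (GRCm38.p6).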

Additional observations from a re-analysis of the deposited data

Results flagged for a closer look

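Smad1 had deposited ratios on opposite sides of 0 in young bone and in the old group. All 3 young bone ratios were above 0 (0.15, 0.12 and 0.06) and all 3 old ratios below it (-0.53, -0.17 and -0.13), and the fitted difference, old minus young bone, was -0.39 (SE 0.15). The limma test of the difference did not pass (adjusted p = 0.69; 0.13 or above with 1 array left out). The difference was -0.25 without old replicate 1, on which the ratios of all features were widest. Under the channel reading the arrays of neither group kept a single sign, and the difference was -0.23.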

How the results depend on the processing

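No receptor or Smad feature passed in any of the 7 comparisons with the channel reading, with features on all 9 arrays, with the looser filter on missing values, with the unswapped arrays alone, with duplicate spots averaged (chosen after seeing the data), or with any single array left out (0 to 0 features). In the average, 1 feature (Smad5) passed with no dye term (0.24, limma adjusted p = 0.024), with a common median absolute deviation (0.23, adjusted p = 0.037) and with the replicate block (0.23, adjusted p = 0.049). With array medians set to 0 there were 2, Smad5 (0.25, adjusted p = 0.046) and Tgfbr2 feature 2321 (0.23, adjusted p = 0.049). With array quality weights there were 3 in the average and 3 in young marrow, Smad5 and both Tgfbr2 features each time; that estimation stopped before converging, its weights ran from 0.35 to 5.14, and it called 1599 features in the average and 2005 in young marrow. In the average 359 features were called in the main fit, 86 on the unswapped arrays alone, and between 96 (without young marrow replicate 2) and 574 (without old replicate 3) with 1 array left out. Across 91 results of single members the channel reading turned the sign of 33, and of 12 castration results of Smad5 and Tgfbr2 it kept the sign of 6; the unswapped arrays alone kept that of 10. Under the channel reading the averages of Tgfbi and Id2 were 0.014 and 0.078. Id2 also lost its call with array medians set to 0 (limma adjusted p = 0.056) and with a common median absolute deviation (0.058), and Fn1, Tgfbi and Id2 lost theirs on the unswapped arrays alone; the cause was not tested. Deviations of arrays with the same replicate number had r from -0.37 to -0.08 between young bone and young marrow. This r was -0.10 to 0.38 between young bone and the old group and 0.27 to 0.60 between young marrow and the old group. Young and old arrays cannot share mice, and these r cannot decide if young bone and young marrow do. The replicate block called no member in old minus young marrow. In young bone 23 features were called in the main fit, 50 with no dye term, 52 with the replicate block, 130 with array quality weights and 1 with a common median absolute deviation or on the unswapped arrays alone. In young marrow 75 were called, against 174 with a common median absolute deviation, 119 with the replicate block and 3 on the unswapped arrays alone. In the old group 65 were called, against 1594 with array quality weights and 13 with a common median absolute deviation or on the unswapped arrays alone. With 1 array left out the counts ran from 1 (without young bone replicate 3) to 80 (without old replicate 3) in young bone, from 0 (without young marrow replicate 2) to 138 (without old replicate 3) in young marrow, and from 10 (without old replicate 2) to 1332 (without old replicate 3) in the old group; without old replicate 3, old minus young marrow called 885 features (1975 with array quality weights) and old minus young bone 31, against 0 and 1.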
